A study of Mus musculus with 3 samples.

Results

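TRIM genes encode proteins built from a RING finger, B-boxes and a coiled coil, and most of those proteins are ubiquitin ligases. The family was examined in F9 cells, a mouse embryonal carcinoma line. Members were all genes whose symbol is Trim followed by a number, with or without a letter, and Pml, which encodes TRIM19; Trim71 was left out. They came to 58 of the 18193 genes named by the array, covered by 112 probe sets. RNA came from cells grown on gelatin-coated plates in medium with fetal calf serum, with no treatment or genetic change named, and 3 replicate samples were each hybridised to an Affymetrix mouse whole-genome array. They form a single group with no other cells beside it, so each signal was set against background on its own array. The labels do not say whether the replicates were separate cultures, so the spread behind the p-values is that of the samples at hand and may be technical.

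TRIM proteins fall into classes with separate known roles. TRIM24, TRIM28 and TRIM33 carry a PHD finger and a bromodomain next to the TRIM core and act on chromatin: TRIM28 (KAP1) is recruited by KRAB zinc finger proteins and brings the histone methyltransferase SETDB1 and HP1 proteins to its targets. In embryonal carcinoma and embryonic stem cells this complex is known for silencing retroviruses and endogenous retroelements, and F9 cells carrying a TRIM28 that cannot bind HP1 are known to differentiate poorly. Other TRIM proteins are induced by interferon and restrict viruses, and a muscle class turns over or repairs the contractile cell.

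The background threshold was the 95th percentile of olfactory, vomeronasal and taste receptor and keratin-associated protein probe sets, and lay at signals of 44.6, 46.1 and 43.2 on replicates 1, 2 and 3. A gene was called above background when limma's one-sided moderated test of log2 signal over the threshold gave a Benjamini-Hochberg adjusted p under 0.05, adjusted over all probe sets. A gene with several probe sets is given by its brightest, taken as a mean over the arrays; the others are given for the chromatin, antiviral and muscle classes and for genes whose probe sets disagree most. Signals of different probe sets depend on the probes, so genes are set against background and not ranked against each other. Levels are linear signals, with mean ± SD over 3 arrays (n = 3), and log2 values are signals relative to the threshold. Not above background does not mean absent.

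Of the 58 TRIM genes, 23 (39.7%) were above background, and 51.1% of 18080 named genes outside the background families were. The median TRIM gene lay at -0.34 log2 units from the threshold and the median of all those genes at 0.72. Trim24, Trim28 and Trim33, the chromatin genes set against the others here, were all 3 above background, the antiviral class in 5 of 14 and the muscle class in 1 of 3. Trim66, a further gene of the TIF1 group that is counted here with the germ cell genes, was not above background, so the TIF1 group stood at 3 of 4. The median distances of the 3 compared classes from the threshold were 5.07, -1.14 and -3.09 log2 units. Without a test, 25 of the 58 exceeded the threshold on all 3 arrays, and 53.8% of all named genes did. No test of these lists was made, so the counts describe these arrays.

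**Figure D1:**
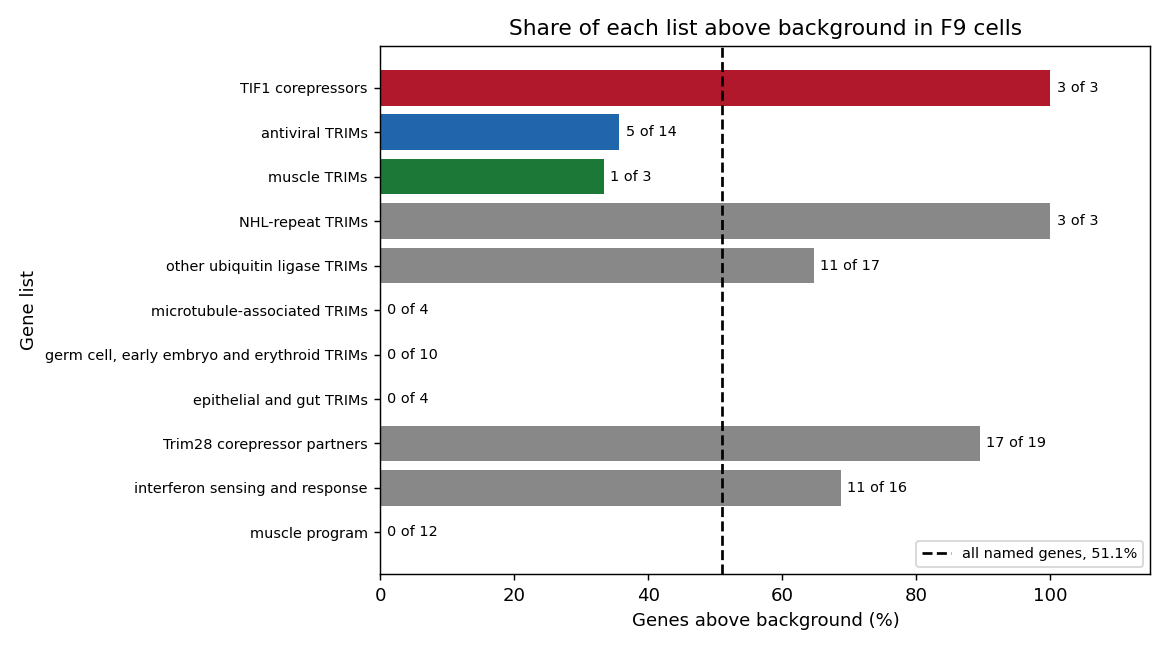
Bars show the percentage of measured genes in each list that were above background on the F9 arrays, with the counts at their ends, and the dashed line marks all named genes (51.1%). The TIF1 class, drawn without Trim66, and the NHL-repeat class, drawn without Trim71, stand at 3 of 3. The microtubule-associated, germ cell and epithelial classes stand at 0.

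The identity of the cells was checked first. Pou5f1 (6809 ± 279), Sox2 (4794 ± 208), Nanog (4866 ± 392) and Zfp42 (6137 ± 128), all markers of embryonal carcinoma cells, were above background. Fut4 (15.1 ± 11.4), a fucosyltransferase gene also taken as a marker, was not. None of the 4 fibroblast markers was above background by limma's test, at an unadjusted p under 0.05 (0) or on all 3 arrays without a test (0). Of 4 leukocyte markers, the macrophage genes Csf1r (86.1 ± 7.27) and Cd68 (79.5 ± 5.38) passed, whereas Ptprc (10.6 ± 6.54), shared by leukocytes, and Cd3e (7.20 ± 0.328), of T cells, lay below the threshold. The summed leukocyte signal was 175 to 195 over the arrays, and its part in the antiviral results was not tested.

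Trim28, the corepressor gene itself, had signals of 8247, 9057 and 8135 on replicates 1, 2 and 3. Its mean of 8479.7 ± 503 lay 7.57 ± 0.11 log2 units (SE) over the threshold (limma adjusted p = 0.000109). That probe set is of a type (_x_at) that can bind related transcripts. A separate probe set gave 7247, 7551 and 7050.5, or 7.35 log2 units. All 6 readings stood far above the threshold, and the arrays differed little, with a coefficient of variation of 5.93% for the brighter probe set.

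The 250 bases before the Trim28 start site are shown because Trim28 is the gene on which the class turns. The window is chr7:13023902-13024151 on the plus strand of GRCm38.p6, from RefSeq. Capitals mark each CpG, and the stretch holds 17 of them.
Trim28: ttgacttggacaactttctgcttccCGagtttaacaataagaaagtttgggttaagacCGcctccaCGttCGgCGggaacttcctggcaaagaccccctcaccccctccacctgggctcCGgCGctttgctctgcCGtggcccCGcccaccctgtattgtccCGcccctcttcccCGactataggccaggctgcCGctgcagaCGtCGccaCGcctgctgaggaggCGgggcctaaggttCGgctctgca

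Trim24, a cofactor of nuclear receptors and a ligase for p53, had signals of 1609.7, 1485 and 1424 (5.07 log2 units, limma adjusted p = 0.000109). A second Trim24 probe set gave 189, 189.8 and 156 and was also above background. The third, at 8.30, 12.6 and 17.04, was not. Trim33, which acts on Smad signalling, had signals of 1189, 1310.0 and 1118 (4.75 log2 units, limma adjusted p = 0.000111). Its second probe set read 297, 237 and 283, above background, and the remaining probe set 16.9, 10.4 and 13.6, below it. Trim24 and Trim33 were thus called by 2 of 3 probe sets each, and on those 2 no array fell below the threshold. Trim66, which encodes TIF1δ and is known from testis, was not above background (16.6 ± 4.03).

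The known partners of TRIM28 were above background in 17 of 19 measured genes, with a median of 4.89 log2 units. Over all named genes the share was 51.1% and the median 0.72 log2 units. Setdb1, the methyltransferase gene, had a signal of 700.4 ± 23.9. The HP1 genes Cbx5 (1587 ± 65.8) and Cbx1 (2659 ± 94.1) passed, and Cbx3 (46.8 ± 16.5) did not, lying at the threshold. Chd3 (62.8 ± 11.1), of the NuRD complex, was the other gene that did not pass (limma adjusted p = 0.0522). Zfp809 (463 ± 42.4), a KRAB zinc finger gene known for retroviral silencing and chosen after its values were seen, was above background. The list was chosen with earlier results of these arrays known.

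The antiviral class divided into 5 genes above background (35.7%) and 9 not, against 51.1% of all named genes above background. Trim25, whose product ubiquitinates the RNA sensor RIG-I, read 1749, 1809 and 1680.4 (5.29 log2 units, limma adjusted p = 0.000109). Its other probe sets averaged 1309 ± 32.4 and 403 ± 23.01, so all 3 were above background. Ddx58, the RIG-I gene, chosen after its values were seen, stood at 402 ± 53.0, also above background.

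Trim6, known in mouse embryonic stem cells as a partner of Myc, read 903, 917 and 887 (4.34 log2 units, limma adjusted p = 0.000115). Its second probe set read 62.3, 70.4 and 84.4 and passed at 0.69 log2 units (limma adjusted p = 0.0247). Pml, the organiser of nuclear bodies, read 900.1, 991 and 755 (4.30 log2 units). A second Pml probe set averaged 570.2 ± 6.90, above background, and another 47.8 ± 11.1, not above background.

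Trim26, a regulator of interferon signalling, read 482, 418 and 359 (3.22 log2 units, limma adjusted p = 0.000267), and its second probe set averaged 193 ± 5.67. Trim21, a cytosolic antibody receptor, read 67.8, 76.2 and 68.3, only 0.66 log2 units over the threshold (limma adjusted p = 0.0101). Leaving out a replicate, whichever it was, ended the call, with limma adjusted p-values of 0.0522 to 0.0631. At the 99th percentile it stood at 0.28 log2 units (0.379), and its second probe set, at 34.3, 28.7 and 19.8, lay below the threshold on every array.

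The 9 genes not above background included all 6 measured relatives of primate TRIM5 and its neighbours that follow Trim6 on chromosome 7. Trim34a read 19.6, 19.6 and 25.5, and Trim5 read 4.40, 30.2 and 8.57. Trim12a read 24.6, 23.02 and 4.42, and Trim12c read 8.59, 23.6 and 35.2. Trim30a, an inhibitor of NF-kappa-B signalling, read 2.43, 32.3 and 17.3, and Trim30d read 16.7, 4.19 and 14.03. No array exceeded the threshold for any of these genes, and the second probe sets of Trim12a, Trim12c, Trim30a, Trim30d and Trim34a were not called either. Members of this cluster are related in sequence, and a probe may bind more than 1 of them. The 5 probe sets annotated to several symbols including a TRIM gene were left out, and Trim34b, Trim30b and Trim30c were not analysed here.

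The other 3 were Trim14, Trim65 and Trim56. Trim14, a mitochondrial adaptor in RNA sensing, read 17.2, 3.07 and 27.9. Trim65, which acts on the sensor MDA5, read 5.89, 15.6 and 17.2. Trim56, which acts on STING signalling, read 63.5, 61.3 and 34.4. Trim56 exceeded the threshold on 2 of 3 arrays and was not called (0.20 log2 units, limma adjusted p = 0.532), while Trim14 and Trim65 were below it on each array.

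**Figure D2:**
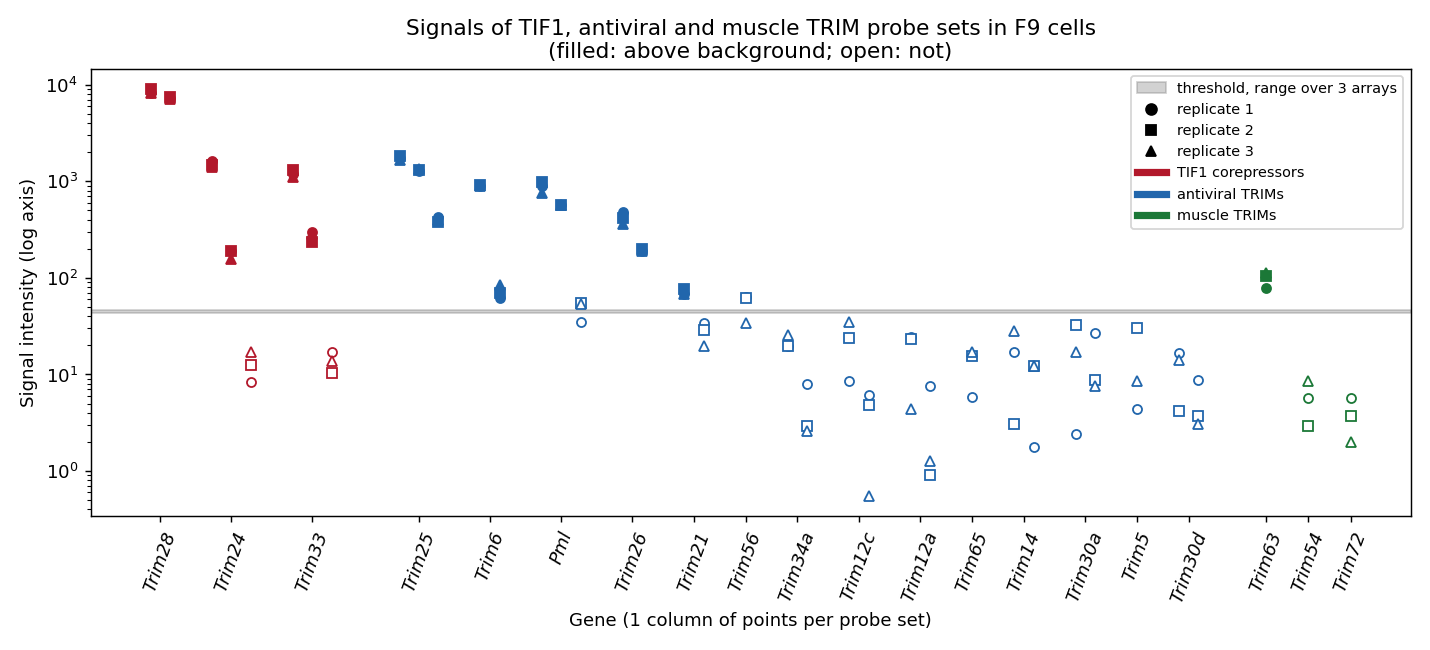
Signal intensity on a log axis is plotted for every probe set of the TIF1, antiviral and muscle genes, with a marker shape for each replicate, filled where limma called the probe set and open where it did not; the grey band is the threshold (43.2 to 46.1). Trim28 lies near 8479.7 with both probe sets filled, and from Trim56 to Trim30d all antiviral markers are open.

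Antiviral TRIM genes are switched on through interferon receptors, kinases and STAT and IRF factors. Of 16 measured genes of that pathway, 11 (68.8%) were above background, against 51.1% of all named genes. The median of the 16 was 1.12 log2 units. The receptor genes Ifnar1 (214 ± 18.6) and Ifnar2 (96.6 ± 15.03) and the kinase genes Jak1 (515 ± 33.0) and Tyk2 (175 ± 10.6) passed. The interferon-induced gene Oas1a (99.2 ± 13.1, limma adjusted p = 0.00427), chosen after its values were seen, also passed. Among the 5 that did not were the sensor gene Ifih1 (15.4 ± 5.52), the interferon-induced gene Ifit1 (16.3 ± 7.15) and Irf7 (33.0 ± 25.3). The interferon-induced gene Mx1, chosen after its values were seen, read 7.92, 48.3 and 9.36, and exceeded the threshold on replicate 2 alone.

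Promoter windows were taken from RefSeq (GRCm38.p6) from 250 bases before to 50 after each start site, and 61 windows matched 47 members. Trim60 and Trim61 have the same window, which is counted for each of them. No window was matched for Trim3, Trim8, Trim11, Trim14, Trim16, Trim17, Trim29, Trim33, Trim35, Trim36 and Trim65. They were searched on both strands for GAAA repeated after any 2 bases (TTTC on the other strand), the core of the interferon-stimulated response element. Among the antiviral genes 9 of 13 windows (69.2%) held it, whereas 1 of 48 windows (2.08%) of the other members did, a Trim2 window. It was present in 3.44% of all 32851 windows in the table. The share among antiviral genes is a description, since the class was drawn up for its link to interferon and its members share sequence. Of the antiviral genes, 6 of the 7 not above background held a match, and so did 2 of the 5 above background, Trim21 and Trim26.

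The matches are printed below because the class is read against them. Each line gives at most 30 bases on the strand of the gene, and capitals mark the match, which in Trim21 and Trim26 is formed by 2 overlapping copies.
Trim34a, chr7:104244457-104244486, plus strand: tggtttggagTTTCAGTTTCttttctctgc
Trim5, chr7:104288136-104288165, minus strand: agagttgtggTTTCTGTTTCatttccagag
Trim12a, chr7:104315466-104315495, minus strand: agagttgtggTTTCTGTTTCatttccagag
Trim12c, chr7:104353359-104353388, minus strand: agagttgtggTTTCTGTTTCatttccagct
Trim30a, chr7:104465210-104465239, minus strand: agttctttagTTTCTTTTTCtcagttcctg
Trim30d, chr7:104507871-104507900, minus strand: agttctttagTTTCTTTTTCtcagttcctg
Trim21, chr7:102565447-102565476, minus strand: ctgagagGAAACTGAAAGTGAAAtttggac
Trim26, chr17:36836979-36837008, plus strand: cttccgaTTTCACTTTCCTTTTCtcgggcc

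The stretches of Trim5 and Trim12a were identical over 30 bases, and that of Trim12c differed from them at 2. The Trim30a and Trim30d stretches were also identical to each other. A second Trim30a window held a match too. Those genes are neighbouring copies, so their matches are not independent. The matches began 49 bases before the start site in Trim5, 29 before in Trim12c, 36 before in Trim30a and 41 before in Trim30d. They began 10 bases after it in Trim12a and Trim34a and 13 after it in Trim21, and 160 before it in Trim26.

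Trim6 begins the same chromosome 7 cluster. From Trim6 to Trim30d the RefSeq annotation lists 10 TRIM genes, of which 7 were measured. While 51.1% of all named genes were above background, of these 7 only Trim6 was. Its upstream sequence is shown beside those of its neighbours because it holds no match in the window. The window is chr7:104218545-104218794, plus strand, and its 6 CpGs are in capitals.
Trim6: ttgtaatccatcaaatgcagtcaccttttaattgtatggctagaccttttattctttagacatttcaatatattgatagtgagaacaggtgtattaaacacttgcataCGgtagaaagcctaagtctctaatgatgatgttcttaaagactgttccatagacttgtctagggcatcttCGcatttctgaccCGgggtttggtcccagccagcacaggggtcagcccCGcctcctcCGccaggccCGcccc

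CpG content of the windows also differed between called and uncalled members. Windows of TRIM genes above background held a median of 17.5 CpGs (range 0 to 46, 26 windows), and those of TRIM genes not above background a median of 6 (range 0 to 29, 35 windows). The medians over all named genes were 22 above background and 7 not above background, so the TRIM genes ran the same way as the table as a whole. Among antiviral genes the medians were 11 in the 5 above background and 1 in the 7 not above background. Of those 7, Trim56 had 12 CpGs. The others were the related genes of the chromosome 7 cluster, with 0 to 3 CpGs per window, so they are not independent. In a mixed class of genes, mostly for ubiquitin ligases, the medians lay closer, at 25 above background and 19.5 not above background. The uncalled microtubule-associated genes had a median of 13. The windows of a gene share its signal, genes such as Trim2 have several, and no test was made.

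**Figure D3:**
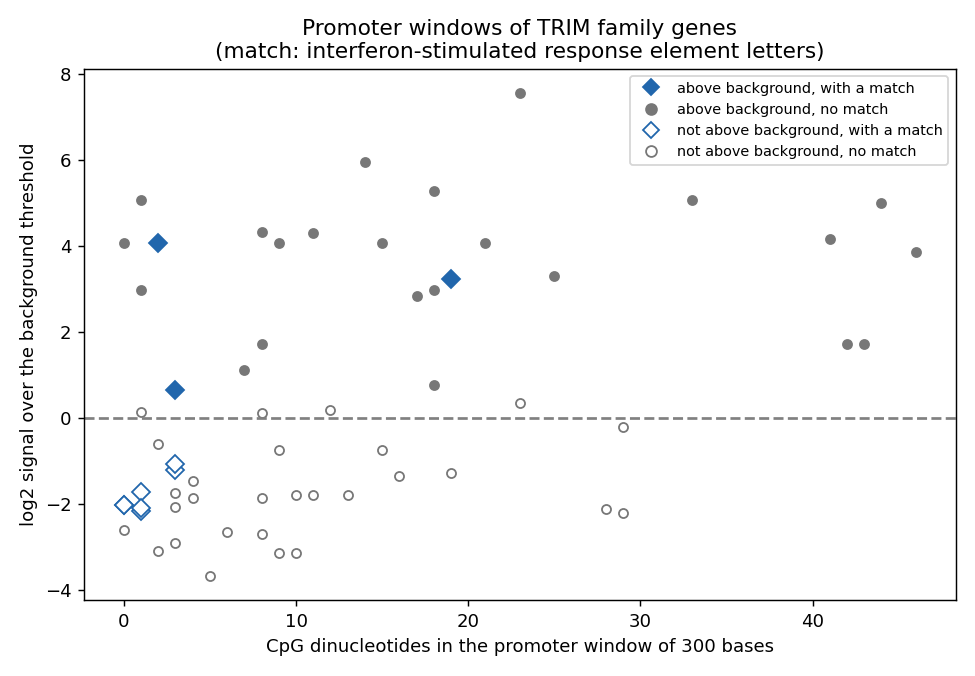
Each point is a promoter window of 300 bases of a TRIM gene, placed by its CpG count (x axis) and the gene's log2 signal over the threshold (y axis); diamonds hold the interferon element and filled points belong to genes above background. The open diamonds gather at 0 to 3 CpGs, all below the threshold.

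Of the muscle class, Trim63 was above background and Trim54 and Trim72 were not (33.3%, against 51.1% of all named genes). Trim63 (MuRF1), the ubiquitin ligase of muscle atrophy, read 77.9, 104 and 113, or 1.12 ± 0.17 log2 units (SE) over the threshold (limma adjusted p = 0.00811). The call was lost without replicate 2 (1.09 log2 units, limma adjusted p = 0.0528) and at the 99th percentile (0.74, 0.0822). Trim54 (MuRF3) read 5.76, 2.91 and 8.56, and Trim72 (MG53), a membrane repair factor, read 5.76, 3.73 and 1.98. These readings all lay far below the threshold, and each gene had a single probe set. Trim55 was not analysed here.

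Genes of the muscle program were not above background in any of 12 cases by limma's test, against 51.1% of all named genes. At an unadjusted limma p under 0.05 the count was 1, and without a test 1 gene exceeded the threshold on all 3 arrays. That gene was the skeletal actin gene Acta1 (64.8 ± 17.1, limma adjusted p = 0.0774), chosen after its values were seen. The myogenic factor genes Myod1 (17.7 ± 6.60), Myog (12.01 ± 11.1), Myf5 (5.09 ± 4.83) and Mef2c (14.6 ± 8.57) lay below the threshold. The summed signal of the 12 genes was 285 to 338 over the arrays, and its relation to the Trim63 signal was not tested.

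The 3 NHL-repeat genes examined, whose products bind RNA or motors through a C-terminal propeller, were all above background, against 51.1% of all named genes. Trim71 was left out by the member rule and is not counted among them. Trim2, known in neurons, averaged 749 ± 9.96, with 5 of its 6 probe sets called. Trim3 averaged 97.7 ± 24.7 (limma adjusted p = 0.00979) and Trim32, mutated in a limb-girdle muscular dystrophy, 77.2 ± 19.1 (0.0388). Both calls were weak. Trim3 lost its call without replicate 1 (0.055) and at the 99th percentile (0.0586). Trim32 lost its call without any 1 replicate (0.0602 to 0.129) and at the 99th percentile (0.38).

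The mixed class of genes mostly for ubiquitin ligases had a median of 2.83 log2 units. Against 51.1% of all named genes, 11 of its 17 genes (64.7%) were above background. They were Trim27 (2773 ± 133), Trim35 (1458 ± 157), Trim59 (1423 ± 122), Trim37 (796 ± 60.3), Trim44 (649.7 ± 45.9), Trim41 (441 ± 20.8), Trim8 (378 ± 34.2), Trim13 (354 ± 14.04), Trim23 (319 ± 23.4), Trim11 (185 ± 11.1) and Trim39 (148 ± 20.5). TRIM13 sits in the endoplasmic reticulum membrane, TRIM23 carries an ARF domain and TRIM37 acts at peroxisomes and centrosomes. Trim27, Trim37 and Trim41 are given by _s_at probe sets, which can bind several transcripts. Without _s_at and _x_at probe sets Trim27 stood at 1.35 log2 units instead of 5.96 (limma adjusted p = 0.00284), Trim41 at 0.93 instead of 3.30 (0.0123) and Trim37 at 2.95 instead of 4.15 (0.000259), all still above background. Trim44 rests on 1 of 3 probe sets, since the others averaged 67.2 ± 28.2 and 43.2 ± 5.59 and were not called. Trim35 had a second called probe set (284 ± 12.6) and another at the threshold (44.5 ± 6.14).

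The 6 that did not pass were Trim16, Trim45, Trim62, Trim7, Trim68 and Trim47. Trim16 read 59.8, 114.7 and 63.9, above the threshold on every array, and narrowly missed the call (0.77 log2 units, limma adjusted p = 0.0585). Trim45 (58.8 ± 19.1) and Trim62 (38.8 ± 2.64) lay near the threshold, and Trim7 (27.5 ± 8.75), Trim68 (17.8 ± 3.38) and Trim47 (10.8 ± 6.66) below it.

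No gene of the microtubule-associated, germ cell, early embryo and erythroid, or epithelial classes was above background by limma's test. Of all named genes 51.1% were. The counts were 0 of 4 microtubule-associated genes, 0 of 10 germ cell, early embryo and erythroid genes and 0 of 4 epithelial genes, with 0 in each class at an unadjusted limma p under 0.05. Without a test, Trim60 alone (51.2, 47.8 and 45.4) exceeded the threshold on all 3 arrays, so the germ cell class then had 1. Trim43a, known from preimplantation embryos, read 60.3, 43.8 and 45.3 and was not called (limma adjusted p = 0.508). In that class Trim10 (31.1 ± 11.9), of red cell precursors, Trim17 (12.9 ± 10.1), Trim42 (7.39 ± 5.72), Trim61 (7.23 ± 2.77), Trim69 (15.3 ± 9.64), Trim75 (8.41 ± 4.71) and Trim80 (8.95 ± 7.08) lay lower.

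The neuronal microtubule genes Trim9 (19.8 ± 8.02), Trim46 (16.1 ± 10.1) and Trim67 (11.8 ± 7.86), and Trim36 (33.1 ± 9.02), were below the threshold on every array. So were Trim15 (7.32 ± 7.73), Trim31 (20.2 ± 15.1) and Trim40 (14.5 ± 13.4) of the epithelial class. Trim29 of that class read 9.13, 29.5 and 56.5, over the threshold on replicate 3 only.

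**Figure D4:**
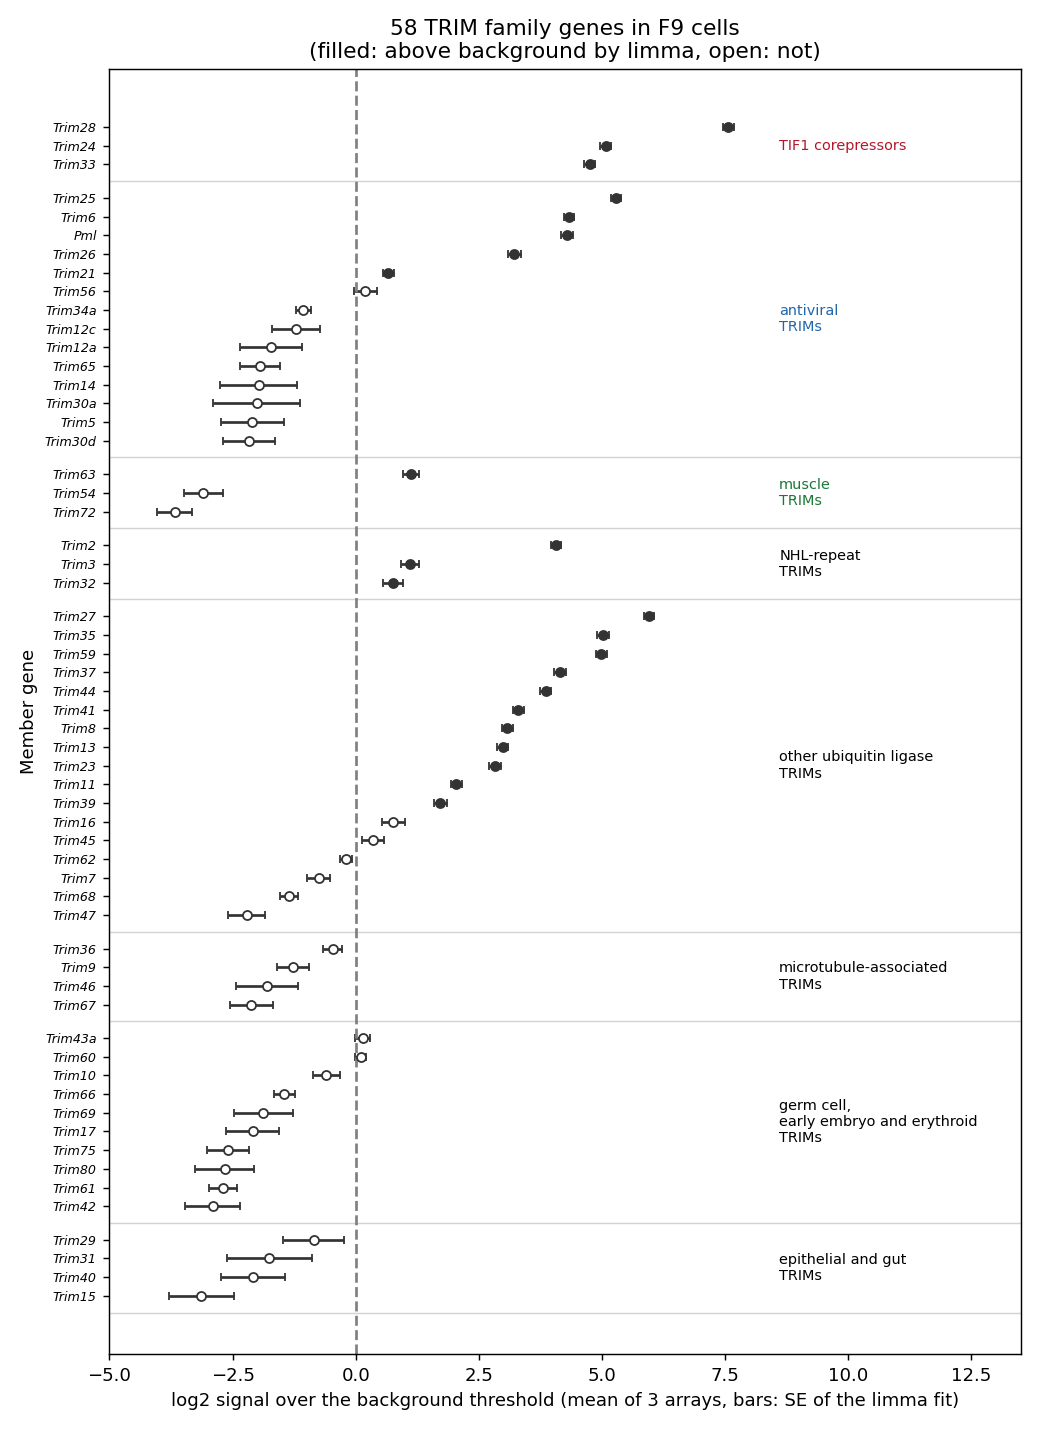
Points give the log2 signal over the threshold for each of the 58 TRIM genes, as the mean of 3 arrays with the SE of the limma fit, ordered within class; filled points were above background. Trim24, Trim28 and Trim33 lie between 4.75 and 7.57, and every point of the microtubule-associated, germ cell and epithelial classes is open.

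The called TRIM genes had a median coefficient of variation of 7.33%, with 8.47% over all named genes above background. A small spread and a high signal favour a call, so these values do not describe the uncalled genes. Of the 31 TRIM genes with several probe sets, 8 were called by all of them, 14 by none and 9 by some: Pml, Trim2, Trim21, Trim23, Trim24, Trim27, Trim33, Trim35 and Trim44. That is 29.0% of them, against 39.8% of all genes with several probe sets. At the level of probe sets, 48 of 112 were above background (45.2% over all probe sets with a single symbol).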

How the data were processed

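Total RNA of 3 replicate F9 samples was measured on Affymetrix arrays. The authors deposited signal intensities on a linear scale, made with GCOS 1.4 per the submitters' processing notes; how the signal was computed is not given in the sources used here. After trimming 2% at each end the mean deposited intensity was 250.002 on every array, so the arrays had been scaled, and no further normalization was applied. Median signals were 37.8, 37.8 and 36.0 over 45101 probe sets.

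Gene symbols came from GEO's platform annotation, which can be old: 34945 probe sets had 1 symbol, 932 several and 9160 none, besides 64 controls. Chromosomes and neighbours came from a GRCm38.p6 table. Background was set by 126 probe sets of 113 genes. Log2 signal minus log2 threshold was fitted over all probe sets with limma 3.58.1 in R 4.3.3 (lmFit, eBayes, one-sided, adjusted p under 0.05), after the code was tested on simulated data. Every member is reported; from each partner list the first 4 measured genes and up to 3 with the less common call are named. Members and lists were chosen with earlier results of these data known. Alternatives were other thresholds and background sets, probe set choice, quantile normalization, an offset of 16, a call without a test, and leaving out each replicate. The number of arrays limits precision.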

Additional observations from a re-analysis of the deposited data

How the results depend on the processing

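Trim24, Trim28 and Trim33 were above background, and Trim66 was not, under every alternative run. For Trim24 and Trim33 the alternatives in probe set choice still used the brightest probe set. Their uncalled probe sets were therefore not tried. Without 1 replicate the antiviral count was 4 each time, the muscle TRIM count 0 to 1, the count of all TRIM genes 20 to 21, the Trim28 partner count 17, the interferon count 9 and the muscle program count 0. With the threshold at the 99th percentile the muscle TRIM count was 0, the antiviral count 4, and the count of all TRIM genes 19. Of all named genes 46.1% were called at the 99th percentile, and 48.1% to 48.6% without 1 replicate. With the threshold at the 90th percentile the muscle program count was 1, and without a test, above the threshold on all 3 arrays, it was also 1. The causes were not tested beyond the construction of each setting: leaving out an array leaves fewer samples, and a higher percentile raises the threshold. Among genes not above background in either setting, Trim62 moved to the other side of the threshold at the 90th percentile (0.11), Trim43a (-0.24), Trim45 (-0.037), Trim56 (-0.19) and Trim60 (-0.28) at the 99th, and Trim43a when 1 replicate was left out (-0.0035 to 0.25). Trim16 gained a call at the 90th percentile (1.08) and with the offset (0.61). Olfactory receptors alone, quantile normalization and the probe set preferred by suffix changed no call among the 58 genes, and leaving out the _s_at and _x_at probe sets changed none among the 56 genes left. With the probe set preferred by suffix the Trim28 partner count was 16 and the interferon count 10. With olfactory receptors alone, at the 90th percentile, with the offset or without a test, the partner count was 18. The count over all 18080 named genes ranged from 8339 at the 99th percentile to 9719 (53.8%) without a test. At the 90th percentile 53.4% were called. No paired analysis was possible because the samples form a single group.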
